A study of Mus musculus with 4 samples.

Results

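The genes described here build the basement membrane or bind it: laminin chains, nidogens, perlecan, agrin, dystroglycan, the fibulins, fibronectin and the integrin subunits. All symbols beginning with Lama, Lamb or Lamc and a digit, or with Itga or Itgb and a digit or letter, were taken from the deposited gene lists together with Nid1, Nid2, Hspg2, Agrn, Dag1, Fbln1, Fbln2 and Fn1, provided that they stood in both the cell and the nucleus lists. This gave 47 gene identifiers (46 symbols, since Itgam is listed under 2 identifiers) among the 27873 genes common to both lists. A total of 41 members had at least 30 unique molecular identifiers (UMIs, single counted transcripts) over the 4 libraries, 33 of them outside the leukocyte and platelet integrins and 8 within that group. The members with fewer were Itgad with 23 UMIs, Itgam with 12 and 5 for its 2 identifiers, Itgax with 5, Itga7 with 14 and Lama1 with 24, and they were not described further. The integrin-binding or integrin-like genes Itgb1bp1, Itgb1bp2, Itgb3bp and Itgbl1 were not counted as members.

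The stria vascularis (SV) is the layered epithelium of the lateral cochlear wall that secretes potassium into the endolymph and maintains the endocochlear potential. Wild-type CBA/J mice at postnatal day 30 were the source of 3 captures of trypsin-dissociated whole cells, from suspensions of about 12 mice each, and 1 capture of detergent-released nuclei, from about 10 mice. No treatment or genotype was compared, each suspension pooled animals, and the number of mice given in the methods differed from that in the sample labels. The comparison that the design allowed was between cell types, with the 3 cell captures as replicates. The nucleus capture, a single library, entered no test, so its values carry exact 95% Poisson intervals that cover counting error only.

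Types were named from marker genes and not from the members, which were kept out of the clustering. The 3 captures gave 130 cells named marginal, 954 intermediate, 167 basal and 31 spindle/root, and the nucleus capture gave 2598, 1474, 673 and 211 nuclei of these types. Another 1696 cells and 3695 nuclei had no type, and their median share of mitochondrial UMIs was 49.5 to 60.2% per cell capture and 50.9% in nuclei. It was 24.7 to 30.2% in marginal, 28.7 to 34.3% in intermediate, 22.9 to 26.7% in basal and 9.23 to 12.1% in spindle/root cells, and its part in the differences was not tested. Each named type carried its own markers: the summed level of the marginal list was 2577 to 2721 UMIs relative to 1000000 UMIs of the type (CPM) in marginal cells against 61.0 to 97.1 CPM in intermediate, 158 to 279.5 CPM in basal and 451 to 618 CPM in spindle/root cells. That of the basal list was 3276 to 3997 CPM in basal cells, 1359 to 1676 CPM in spindle/root, 270.4 to 383 CPM in marginal and 72.9 to 82.4 CPM in intermediate cells, so that markers of marginal and basal cells were also present in spindle/root cells. RNA of intermediate cells was present beyond them. Dct, a melanin enzyme of intermediate cells, stood at 23148, 20051 and 15724 CPM in the intermediate cells of captures 1, 2 and 3, at 6988, 4954 and 4069 CPM in marginal cells and at 8071, 5228 and 4916 CPM in basal cells. The summed level of the 10 intermediate markers was 21958 to 30018 CPM in intermediate cells, 6148 to 10079.7 CPM in marginal cells with 9 of 10 detected, 7441 to 11708 CPM in basal cells with 9 of 10 detected and 687 to 3699.6 CPM in spindle/root cells with 8 of 10 detected. Tyrp1 was at 0 in those 3 types. Nuclei were mixed as well. In basal nuclei the marginal list summed to 1639.5 CPM and the intermediate list to 5640 CPM, against 1256 CPM for their own. Marginal nuclei held the marginal list at 6064 CPM. Marker UMIs of another SV type exceeded those of the own type in 502 of 673 basal and 82 of 211 spindle/root nuclei. This held for 115 of 2598 marginal and 0 of 1474 intermediate nuclei. The comparison, made in the same way for cells below, used raw UMIs of marker lists of unlike size and level. Intermediate nuclei held their own list at 36239 CPM and the marginal list at 442 CPM. Their count of 0 therefore cannot show that they were unmixed. Leaving out the nuclei with more marker UMIs of another type moved the nucleus result of 6 members and kept that of 35. The part of such RNA in each nucleus value was not tested. Markers of vessels differed between captures. The 7 endothelial genes summed to 18.8, 7.33 and 115 CPM in the basal cells of captures 1, 2 and 3 and to 27.9, 1.32 and 31.7 CPM in marginal cells, with all 7 detected in both. The 7 pericyte genes summed to 24.2, 8.55 and 123 CPM in basal cells with 5 detected, and to 183, 9.24 and 93.0 CPM in marginal cells with 6 detected. Few cells carried them: Rgs5, the highest pericyte marker, had 46 UMIs in 5 basal and 56 UMIs in 2 marginal cells. The part of such RNA in the member values was not tested. An alternative left out the cells in which marker UMIs of another SV type exceeded those of their own type. These mixed barcodes were 85 of 130 marginal, 95 of 167 basal and 2 of 31 spindle/root cells. Without them the genes tested fell from 7430 to 3368. The number of members called without these barcodes is given in the closing section.

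A basement membrane is a thin sheet of matrix in which laminin trimers, each of an alpha, a beta and a gamma chain, polymerise on the cell surface and are tied by nidogen and perlecan to a network of type IV collagen. Cells hold on to it through integrins, which are pairs of an alpha and a beta subunit, and through dystroglycan, which also binds agrin and perlecan. In the SV, the capillaries that run among the intermediate cells keep a basement membrane of their own, and mutations of its components are known causes of hearing loss.

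Promoter sequences are shown for the member with the smallest adjusted p among those higher in every capture in marginal cells (Itgb5), intermediate cells (Itgav) and basal cells (Fbln1), of the 30 of 46 symbols with an entry in the RefSeq promoter table (assembly GRCm38.p6). Each window runs from 250 bases before to 50 bases after a transcription start, is read 5′ to 3′ on the plus strand, and has in capitals every match, on either strand, to the motifs CACGTG and CATGTG (E-boxes), AGGTCA (a nuclear receptor half-site) and GGGCGG (a GC box, CCGCCC on the other strand). None of these motifs overlapped another in the 3 windows shown.
Itgb5, chr16:33829415-33829714: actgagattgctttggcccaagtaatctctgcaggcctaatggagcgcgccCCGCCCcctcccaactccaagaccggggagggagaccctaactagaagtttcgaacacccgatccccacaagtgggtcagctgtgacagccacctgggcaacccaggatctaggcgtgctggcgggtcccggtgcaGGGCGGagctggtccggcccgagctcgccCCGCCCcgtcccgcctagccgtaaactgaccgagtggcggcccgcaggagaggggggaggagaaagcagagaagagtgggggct
Itgav, chr2:83724147-83724446: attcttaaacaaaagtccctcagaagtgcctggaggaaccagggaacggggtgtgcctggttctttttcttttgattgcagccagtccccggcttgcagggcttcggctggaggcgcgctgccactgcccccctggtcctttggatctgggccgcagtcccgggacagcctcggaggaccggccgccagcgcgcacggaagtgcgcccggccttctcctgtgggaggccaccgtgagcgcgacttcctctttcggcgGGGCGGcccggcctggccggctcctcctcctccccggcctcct
Fbln1, the later of its 2 listed starts, chr15:85205758-85206057: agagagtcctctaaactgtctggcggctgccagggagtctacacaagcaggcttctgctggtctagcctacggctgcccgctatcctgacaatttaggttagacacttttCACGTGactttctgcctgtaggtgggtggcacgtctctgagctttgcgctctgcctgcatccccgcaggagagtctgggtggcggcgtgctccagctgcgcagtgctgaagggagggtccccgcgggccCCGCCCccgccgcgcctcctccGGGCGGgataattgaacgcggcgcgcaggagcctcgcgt
The Itgb5 window held 3 GC boxes and the Itgav window 1, and neither held an E-box or a half-site. The Fbln1 window held 1 CACGTG and 2 GC boxes. Over 32851 promoter windows of this length, 35.7% held a GC box, 7.15% held CACGTG, 14.2% held CATGTG and 16.3% held the half-site. Of the 36 member windows, 20 held a GC box, 2 held CACGTG (both of Fbln1), 5 held CATGTG and 1, of Itgb2l, held the half-site. A match describes the letters of the window and is not evidence that a factor binds there.

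UMIs were summed per capture and type and every type was set against the average of the remaining 3 in edgeR's quasi-likelihood test with the capture as a block, and p-values were adjusted over all 7430 genes tested (Benjamini-Hochberg). A call is an adjusted p under 0.05. The spindle/root values rest on captures 2 and 3, since capture 1 held 4 such cells. Of the 47 members, 21 passed edgeR's filter on low counts, none of them a leukocyte or platelet integrin, and 19 were called in at least 1 type. The share of all genes tested that were called in at least 1 type was not computed, so 19 of 21 has no comparison. The filter works mainly on CPM within sums. Lama4, with 128 UMIs in the 4 types of cells, did not pass, and Itgb4, with 53, did. In basal cells 12 members were higher and 2 lower, where 16.2% and 8.95% of all genes tested were called. In intermediate cells 6 were higher and 9 lower, against 17.5% and 17.8% of all genes. In marginal cells 5 were higher and 2 lower, against 15.1% and 11%, and in spindle/root cells 1 was higher and 5 lower, against 11.7% and 8.08%. The median log2 fold change of the 21 members was 1.19 in basal cells, -0.44 in intermediate cells, -0.08 in marginal cells and -0.13 in spindle/root cells, beside 0.03, 0.02, 0.03 and -0.08 over all genes tested. The filter on low counts passes a gene through the type in which it is high, so these 21 are not a sample of all members. Of the 42 calls, 39 had the same sign in every capture with at least 5 cells of the type, a share not computed over all genes. Among the exceptions were Dag1 and Hspg2 in intermediate cells, each with 1 capture against the call.

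**Figure D1:**
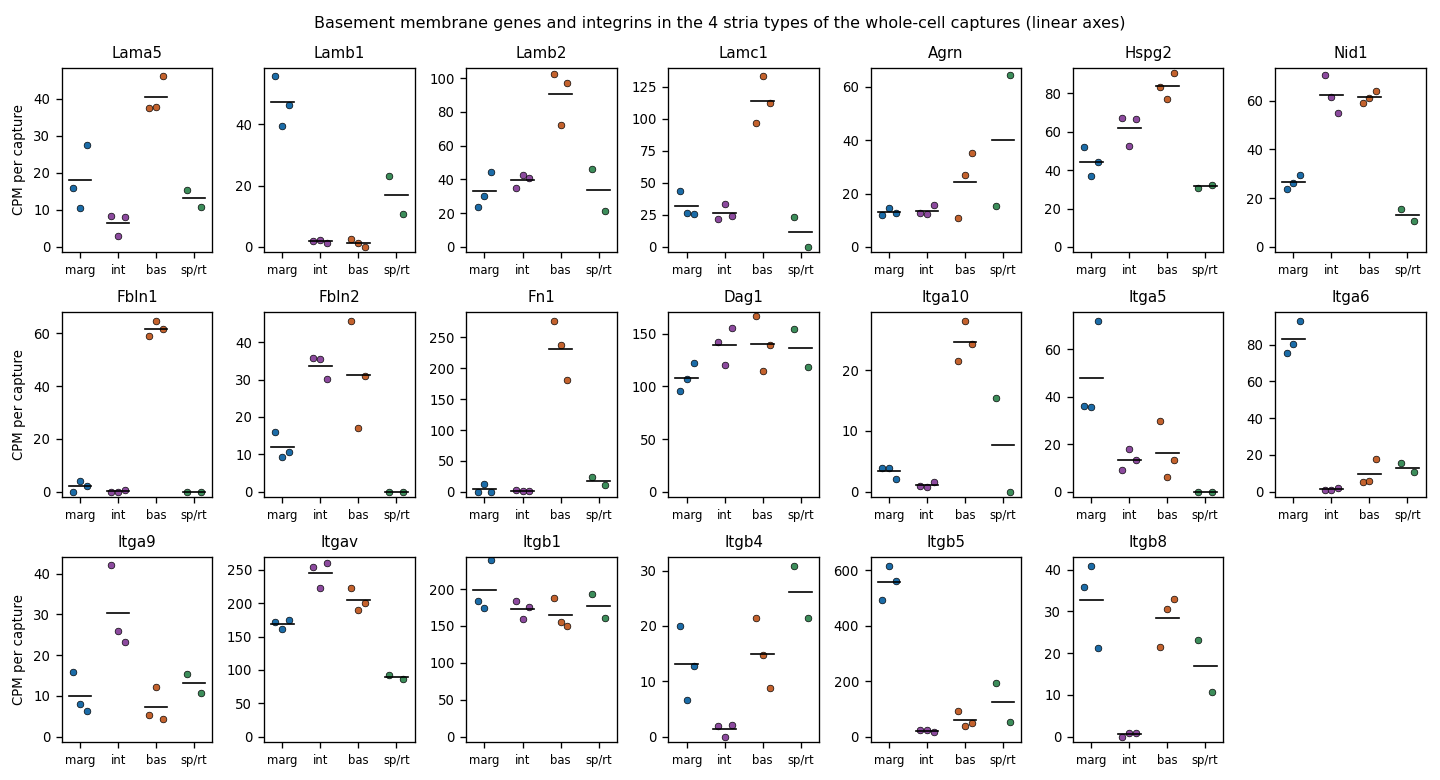
Each panel is 1 of 20 members tested; the y axis is CPM on a linear scale, each point is 1 whole-cell capture (3 for marginal, intermediate and basal cells, captures 2 and 3 for spindle/root cells) and the bar is their mean. Lamb1, Itga6 and Itgb5 stood highest in marginal cells, Fn1, Fbln1, Lamc1 and Itga10 in basal cells, and the points of Itgb1 lay at similar levels in all 4 types.

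Among the laminin chains, which form the polymer itself, Lama5, Lamb2 and Lamc1 were highest in basal cells and Lamb1 was highest in marginal cells. The gamma chain Lamc1 (GRCm38 chr1:153218922-153332786, minus strand), found in most laminin trimers, was measured in basal cells at 96.8, 133 and 112 CPM in captures 1, 2 and 3, against 43.8, 26.4 and 25.4 CPM in marginal, 22.0, 33.6 and 24.4 CPM in intermediate and, in captures 2 and 3, 23.2 and 0 CPM in spindle/root cells. Basal values lay above all others, with a difference of 2.51 ± 0.23 (log2 fold change ± SE, adjusted p = 1.71e-15), which was 4.37 without capture 2. Lamc1 was called lower in spindle/root cells, at -2.08 ± 0.67 (adjusted p = 0.0161), on 3 UMIs. That call was lost without capture 3 (-1.44, adjusted p = 0.237), in DESeq2 (adjusted p = 0.0933) and without TMM scaling (adjusted p = 0.0527). Without capture 2 no spindle/root UMI remained and the fitted value moved to -7.97. That value and the basal value of 4.37 depend on the prior count. The beta chain Lamb2 (chr9:108479736-108490530, plus strand) was likewise highest in basal cells in every capture, with 102, 72.1 and 96.9 CPM, where the highest value in another type was 46.3 CPM. Its log2 difference in basal cells was 1.35 ± 0.22 (adjusted p = 5.44e-07). The alpha chain Lama5 (chr2:180176373-180225859, minus strand), a chain of many epithelial and vascular basement membranes, stood at 37.6, 37.9 and 46.3 CPM in basal cells and at 8.24, 3.05 and 8.13 CPM in intermediate cells, and these groups did not overlap. It was higher in basal cells by 1.97 ± 0.35 (adjusted p = 2.90e-06) and lower in intermediate cells at -1.53 ± 0.50 (adjusted p = 0.00897). The intermediate call was lost in edgeR with no doublet removal (adjusted p = 0.0514) and with at least 500 genes per barcode (0.0669). It was also lost with 20 principal components (0.061) and without capture 2 (-1.06). In nuclei, Lama5 stood at 45.1 CPM in basal and 46.5 CPM in spindle/root nuclei.

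Lamb1 (chr12:31265234-31329644, plus strand), the other widespread beta chain, showed a different order from Lamb2. It was measured at 55.8, 39.6 and 46.5 CPM in marginal cells, 1.83, 2.29 and 1.22 CPM in intermediate cells, 2.69, 1.22 and 0 CPM in basal cells and 23.2 and 10.7 CPM in spindle/root cells. Every marginal value lay above every other value, and the difference was 3.51 ± 0.43 (log2 fold change ± SE, adjusted p = 4.62e-11). Of the 83 UMIs of Lamb1 in the 4 types, 66 lay in marginal and 2 in basal cells. In nuclei the order was the same at the top, with 94.9 CPM (95% interval 86.0 to 104) in marginal nuclei, 52.0 CPM (95% interval 31.3 to 81.2) in spindle/root, 28.6 CPM (95% interval 19.7 to 40.2) in basal and 9.22 CPM (95% interval 5.85 to 13.8) in intermediate nuclei.

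Lamb3 and Lama3 are chains of the laminin of epithelial anchoring sites. Lamb3 did not pass the filter on low counts, with 3 UMIs in spindle/root, 7 in marginal, 4 in basal and 1 in intermediate cells. Spindle/root nuclei held Lamb3 at 32.8 CPM (95% interval 17.0 to 57.3) and Reissner's membrane nuclei at 28.7 CPM (95% interval 7.82 to 73.5), and no UMI was found in basal nuclei, which allows up to 2.60 CPM. Lama3 was absent from all 3 cell captures and had 45 UMIs in nuclei, of which 21 lay in intermediate, 11 in marginal and 1 in spindle/root nuclei.

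Lama2, Lama4 and Lamc3 did not pass the filter on low counts in cells and were described from nuclei. Lama2, the alpha chain of muscle and nerve basement membranes, reached 327 CPM (95% interval 271 to 392) in fibrocyte nuclei and 28.6 CPM (95% interval 19.7 to 40.2) in basal nuclei, against 7.96 CPM in marginal, 6.82 CPM in intermediate and 8.21 CPM in spindle/root nuclei. Lama4, an alpha chain of vascular basement membranes, was highest in intermediate nuclei, at 71.4 CPM (95% interval 61.3 to 82.7), against 11.3 CPM (95% interval 6.01 to 19.3) in basal and 2.05 CPM (95% interval 0.936 to 3.89) in marginal nuclei. In whole cells, captures 1, 2 and 3 gave Lama4 at 21.1, 21.0 and 11 CPM in intermediate, 2.69, 8.55 and 13.2 CPM in basal and 12.0, 3.96 and 4.23 CPM in marginal cells, so that intermediate cells were the highest of these 3 types in captures 1 and 2 and basal cells in capture 3. In intermediate cells the 7 endothelial markers summed to 2.44 to 4.96 CPM with 2 detected, Cdh5 and Cldn5 being at 0, and the 7 pericyte markers to 26.3 to 36.6 CPM with 3 detected. The highest pericyte marker there was Cspg4, with 183 UMIs in 156 cells, and Kcnj8, Abcc9, Notch3 and Acta2 were at 0. Intermediate nuclei had 15.6 CPM with 6 endothelial markers and 44.5 CPM with 3 pericyte markers detected. The part of vessel RNA in the Lama4 values was not tested. Lamc3 reached 36.5 CPM (95% interval 26.3 to 49.3) in basal and 18 CPM (95% interval 13.2 to 24.1) in intermediate nuclei and stayed at 1.82 CPM in marginal nuclei.

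Of the linker proteins and heparan sulfate proteoglycans, Nid1 and Hspg2 were called higher in both basal and intermediate cells. Nid1 (nidogen, chr13:13437551-13512269, plus strand), which ties laminin to type IV collagen, was measured at 70.5, 61.5 and 54.9 CPM in intermediate and 59.1, 61.1 and 63.9 CPM in basal cells, and at 23.9, 26.4 and 29.6 CPM in marginal and 15.4 and 10.7 CPM in spindle/root cells. The first pair of types did not overlap the second, and Nid1 was higher in intermediate cells by 1.41 ± 0.23 (adjusted p = 4.48e-07) and in basal cells by 1.19 ± 0.28 (adjusted p = 4.80e-04), and lower in spindle/root cells at -2.03 ± 0.65 (adjusted p = 0.0159). The spindle/root call was lost without capture 2 (adjusted p = 0.14), without capture 3 (0.178), in DESeq2 (0.0973) and without TMM scaling (0.051), and in 5 of the alternatives in all. Nuclei gave 44.1 CPM (95% interval 36.3 to 53.2) in intermediate, 39.9 CPM (95% interval 29.2 to 53.3) in basal and 3.87 CPM (95% interval 2.25 to 6.19) in marginal nuclei. Hspg2 (perlecan, chr4:137468769-137570630, plus strand) had 83.3, 77.0 and 90.3 CPM in basal cells, 66.8, 52.7 and 66.7 CPM in intermediate, 51.8, 37.0 and 44.4 CPM in marginal and 30.9 and 32.2 CPM in spindle/root cells. All basal values lay above the rest, with a difference of 1.01 ± 0.22 (adjusted p = 1.35e-04). The call in intermediate cells, 0.63 ± 0.20 (adjusted p = 0.00791), was lost without capture 3 (adjusted p = 0.119 in edgeR). It was also lost in DESeq2 (adjusted p = 0.0608) and in edgeR without TMM scaling (0.31, adjusted p = 0.229). Hspg2 levels in nuclei were 57.3 CPM in basal, 42.9 CPM in intermediate, 30.1 CPM in spindle/root and 26.6 CPM in marginal nuclei. Agrn (agrin) was not called in any type, and its levels ran from 10.8 to 64.5 CPM over all types and captures. Its largest difference in size, -0.86 ± 0.40 (adjusted p = 0.102), was in marginal cells. In nuclei, Agrn stood at 43.8 CPM in spindle/root, 33.0 CPM in basal, 16.4 CPM in marginal and 8.42 CPM in intermediate nuclei. Nid2 stood at 6.94 CPM (95% interval 3.00 to 13.7) in basal and 3.18 CPM (95% interval 1.74 to 5.34) in marginal nuclei.

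Fn1 (fibronectin, GRCm38 chr1:71585520-71653200, minus strand), a soluble and fibrillar glycoprotein bound by several integrins, was highest in basal cells. It stood at 277, 238 and 181 CPM in basal cells of captures 1, 2 and 3, against 0, 13.2 and 0 CPM in marginal, 2.75, 0.764 and 1.63 CPM in intermediate and 23.2 and 10.7 CPM in spindle/root cells. Every basal value lay above every other value, and the difference was 5.34 ± 0.24 (log2 fold change ± SE, adjusted p = 1.92e-30), the smallest adjusted p of any member. Without capture 2 no marginal UMI remained, and the fitted value of 7.02 depends on the prior count. At least 1 Fn1 UMI was found in 74.9% of basal and 0.943% of intermediate cells. The lower call in intermediate cells, -3.94 ± 0.64 (adjusted p = 2.73e-07), was lost without capture 2 (-1.58, adjusted p = 0.98), and the lower call in marginal cells, -1.59 ± 0.57 (adjusted p = 0.0303), rested on 10 UMIs, all in capture 2. That marginal call was lost in 9 of the alternatives, among them no doublet removal (-0.56, adjusted p = 0.712), DESeq2 (adjusted p = 0.0903) and leaving out capture 1 or capture 3 (adjusted p = 0.135 and 0.212). With 1 capture left out its value ran from -6.61 without capture 2, with no marginal UMI left, to -1.13 without capture 3. In nuclei, Fn1 was 62.5 CPM (95% interval 48.9 to 78.7) in basal and 66.0 CPM (95% interval 42.3 to 98.2) in fibrocyte nuclei and reached 295 CPM (95% interval 234 to 368) in macrophage nuclei. Fibrocyte markers, led by Otos, differed between the basal cells of the captures, with a summed 51.1, 2275 and 2849 CPM, all 6 detected. The part of fibrocyte RNA in the Fn1 values was not tested. Apol7d, a listed gene, overlaps Fn1 on the opposite strand.

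The fibulins, which bind laminin, nidogen and fibronectin within the matrix, differed from each other. Fbln1 stood at 59.1, 64.8 and 61.7 CPM in the basal cells of captures 1, 2 and 3, a mean of 61.9 ± 2.81 CPM (SD, n = 3), and these cells held 103 of the 109 UMIs found in the 4 types. It had 0, 3.96 and 2.11 CPM in marginal and 0, 0 and 0.813 CPM in intermediate cells, and no UMI in the spindle/root cells, which allows up to 23.2 CPM in capture 2 and 32.2 CPM in capture 3. The call in basal cells had an adjusted p of 7.68e-19. No fold is given, since the fitted value for a gene with a type at 0 depends on the prior count. Nuclei showed Fbln1 at 28.6 CPM (95% interval 19.7 to 40.2) in basal and 52.3 CPM (95% interval 31.5 to 81.6) in fibrocyte nuclei. Fbln2 was found at 35.7, 35.5 and 30.1 CPM in intermediate, 45.7, 17.1 and 30.8 CPM in basal and 15.9, 9.24 and 10.6 CPM in marginal cells, and had no UMI in the spindle/root cells of captures 2 and 3. It was called higher in intermediate (adjusted p = 6.54e-07) and basal cells (adjusted p = 0.00519) and lower in spindle/root cells (adjusted p = 0.0163). The 4 spindle/root cells of capture 1 held 2 Fbln2 UMIs, and the spindle/root call was lost when they were added (adjusted p = 0.115). That call was also lost in DESeq2 (adjusted p = 0.0586) and without capture 2 or capture 3. The basal call was lost without capture 3.

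Dystroglycan (Dag1, chr9:108204634-108263958, minus strand), the non-integrin receptor for laminin, agrin and perlecan, was found in every type at levels that overlapped. Captures 1, 2 and 3 gave 95.6, 107 and 123 CPM in marginal, 142, 119.9 and 155 CPM in intermediate and 167, 115 and 139 CPM in basal cells, and captures 2 and 3 gave 154 and 118 CPM in spindle/root cells. The test called Dag1 higher in intermediate cells, 0.40 ± 0.13 (log2 fold change ± SE, adjusted p = 0.0138), although 1 of 3 captures had it lower, and lower in marginal cells, -0.43 ± 0.17 (adjusted p = 0.0452). Both calls were lost without TMM scaling (adjusted p = 0.676 and 0.159) and in DESeq2 (adjusted p = 0.082 and 0.103). Nuclei gave 142 CPM (95% interval 128 to 158) in intermediate, 123 CPM (95% interval 89.8 to 165) in spindle/root, 82.3 CPM (95% interval 74.1 to 91.3) in marginal and 81.6 CPM (95% interval 65.9 to 99.8) in basal nuclei.

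**Figure D2:**
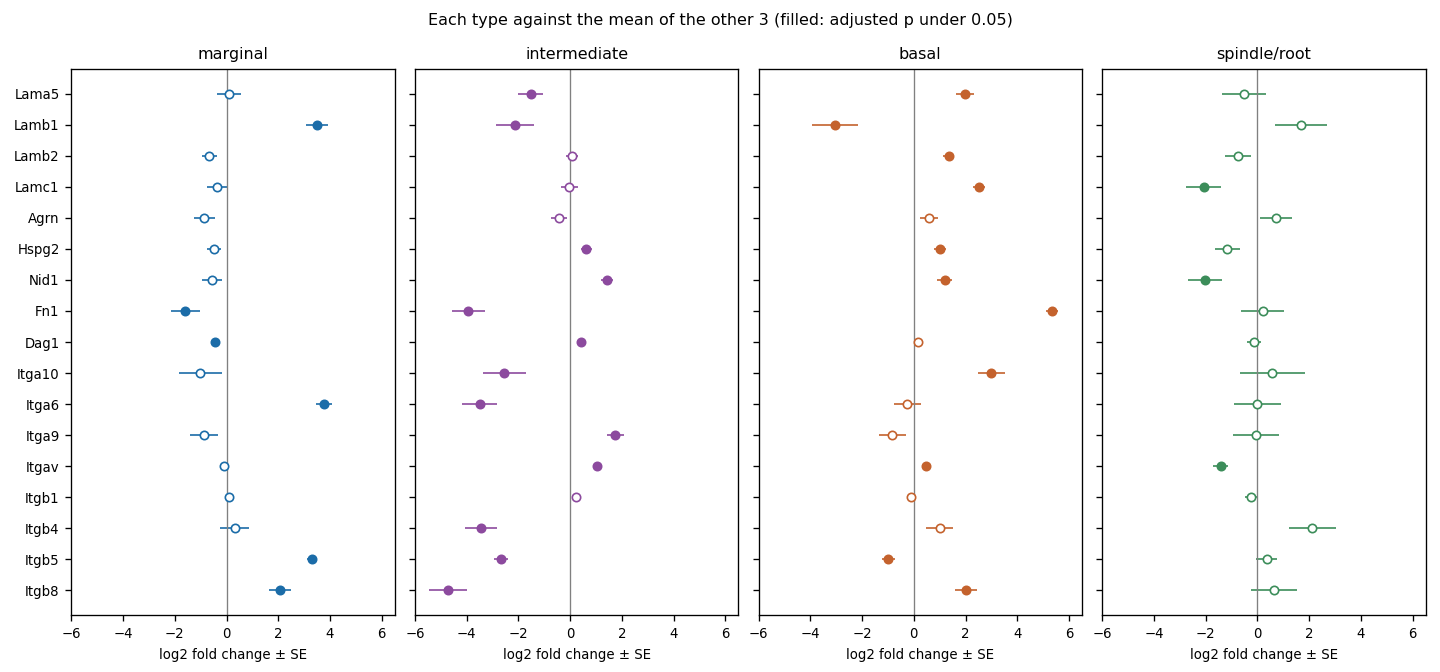
The x axis of each panel is the fitted log2 fold change of 1 type against the mean of the other 3, with its standard error, for 17 members; filled points had an adjusted p under 0.05, and 3 members with no UMI in the spindle/root sums are not drawn. Fn1 in basal cells (5.34) and Itga6 in marginal cells (3.75) lie to the right, and Itgb8 in intermediate cells (-4.72) lies farthest to the left.

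Of the integrin alpha subunits, which set what the pair binds, Itga5 and Itga6 were highest in marginal cells, Itga9 and Itgav in intermediate cells and Itga10 in basal cells. Itga6 (chr2:71745616-71858416, plus strand), a laminin-binding subunit, was measured at 75.7, 80.5 and 93.0 CPM in marginal cells, 5.38, 6.11 and 17.6 CPM in basal, 15.4 and 10.7 CPM in spindle/root and 0.916, 1.15 and 2.03 CPM in intermediate cells. Marginal values stood apart from all others, by 3.75 ± 0.31 (log2 fold change ± SE, adjusted p = 1.70e-18), and intermediate cells were lower, at -3.50 ± 0.67 (adjusted p = 5.56e-06). Marginal nuclei also led, with 151 CPM (95% interval 140.0 to 163), followed by fibrocyte, Reissner's membrane and spindle/root nuclei at 57.8, 57.4 and 49.2 CPM, whose intervals overlapped. Itga5 (chr15:103344286-103366763, minus strand), the fibronectin-binding partner of Itgb1, had 35.9, 35.6 and 71.8 CPM in marginal, 9.16, 17.9 and 13.4 CPM in intermediate and 29.6, 6.11 and 13.2 CPM in basal cells. It was called higher in marginal cells (adjusted p = 2.48e-05). With no UMI in the spindle/root cells of captures 2 and 3 it was also called lower there (adjusted p = 0.0382), a call lost in 12 of the alternatives, among them the one that added capture 1 with its 2 UMIs (adjusted p = 0.21). Marginal nuclei held 117 CPM (95% interval 107 to 128) against 43.4 CPM (95% interval 32.2 to 57.2) in basal and 26.5 CPM (95% interval 20.5 to 33.7) in intermediate nuclei.

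Itgav (chr2:83724397-83806916, plus strand), which pairs with Itgb5, Itgb6, Itgb8 and Itgb1 and binds fibronectin and vitronectin, was measured in every type. Intermediate cells had 255, 223 and 260.2 CPM in captures 1, 2 and 3, basal cells 223, 189 and 201 CPM, marginal cells 171, 161 and 175 CPM and spindle/root cells 92.7 and 85.9 CPM in captures 2 and 3. Within each capture the order was intermediate, basal, marginal, spindle/root. The difference in intermediate cells was 1.04 ± 0.13 (log2 fold change ± SE, adjusted p = 1.66e-10), that in spindle/root cells -1.43 ± 0.29 (adjusted p = 6.83e-05) and that in basal cells 0.46 ± 0.15 (adjusted p = 0.017). The basal call was lost in DESeq2 (adjusted p = 0.0575) and without each of the 3 captures in turn. Intermediate nuclei were highest too, with 223 CPM (95% interval 205 to 242). Spindle/root nuclei came next, with 167 CPM (95% interval 128 to 214), above marginal (112 CPM) and basal nuclei (110.2 CPM), an order unlike that of the cells. Itga9 (chr9:118606690-118901003, plus strand), a receptor for tenascin and other matrix proteins, led in intermediate cells with 42.1, 26.0 and 23.2 CPM, against 15.9, 7.92 and 6.34 CPM in marginal, 5.38, 12.2 and 4.41 CPM in basal and 15.4 and 10.7 CPM in spindle/root cells. The difference was 1.75 ± 0.31 (adjusted p = 2.08e-06). In nuclei, intermediate and spindle/root nuclei could not be told apart, at 118 CPM (95% interval 105 to 132) and 118 CPM (95% interval 85.1 to 158), and marginal nuclei had 4.55 CPM (95% interval 2.78 to 7.03). The summed intermediate markers and Itgav both stood higher in intermediate cells than in the other 3 types, and the part of that RNA in the marginal and basal values of Itgav and Itga9 was not tested.

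Itga10 (chr3:96645584-96664519, plus strand), a collagen-binding subunit known from cartilage, was highest in basal cells in each capture, with 21.5, 28.1 and 24.2 CPM, against 3.98, 3.96 and 2.11 CPM in marginal, 0.916, 0.764 and 1.63 CPM in intermediate and 15.4 and 0 CPM in spindle/root cells. Its difference in basal cells was 3.00 ± 0.51 (adjusted p = 8.58e-07). Without capture 2 no spindle/root UMI remained, and the fitted value of 4.68 depends on the prior count. Basal nuclei held 53.8 CPM (95% interval 41.3 to 69.0), above the 16.5 CPM (95% interval 6.06 to 35.9) of fibrocyte nuclei and the 3.18 CPM of marginal nuclei. The collagen-binding subunits Itga1, Itga2 and Itga11 had 5, 9 and 2 UMIs in all cell captures and were described from nuclei. Itga2 was highest in marginal nuclei, 96.0 CPM (95% interval 87.1 to 106), then in basal, 26.9 CPM (95% interval 18.3 to 38.2), and lowest in intermediate nuclei, 0.802 CPM (95% interval 0.0971 to 2.90). Of the 9 Itga2 UMIs in cells, 8 lay in marginal and 1 in spindle/root cells. Marginal markers summed to 1639.5 CPM in basal and 6064 CPM in marginal nuclei. The part of marginal RNA in the basal nucleus values of Itga2 and Itga1 was not tested. Itga1 stood at 35.0 CPM (95% interval 29.7 to 41.0) in marginal, 24.3 CPM (95% interval 16.1 to 35.1) in basal and 6.02 CPM (95% interval 3.37 to 9.92) in intermediate nuclei. Itga11 was highest in fibrocyte nuclei, at 27.5 CPM (95% interval 13.2 to 50.6), on 10 UMIs. Itga3, another laminin-binding subunit, had 15.9, 21.1 and 10.6 CPM in marginal, 4.58, 4.96 and 5.29 CPM in intermediate and 5.38, 1.22 and 2.20 CPM in basal cells. Its level in spindle/root nuclei was 21.9 CPM (95% interval 9.45 to 43.1), beside 19.1 CPM (95% interval 15.2 to 23.7) in marginal, 7.81 CPM (95% interval 3.57 to 14.8) in basal and 7.22 CPM (95% interval 4.28 to 11.4) in intermediate nuclei.

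Itgb1 (chr8:128685654-128733200, plus strand), the beta subunit shared by most matrix-binding integrins, was among the 2 tested members with no call in any type, Agrn being the other. It stood at 183, 174 and 239 CPM in marginal, 183, 160.0 and 176 CPM in intermediate, 188, 155 and 149.8 CPM in basal and 193 and 161 CPM in spindle/root cells. The log2 differences lay between -0.23 ± 0.25 (adjusted p = 0.568) in spindle/root and 0.23 ± 0.13 (adjusted p = 0.161) in intermediate cells in edgeR, and values of the 4 types overlapped. Nuclei ranged from 119.8 CPM in basal to 167 CPM in spindle/root nuclei.

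Itgb5 (chr16:33829665-33949338, plus strand), which pairs with Itgav, was highest in marginal cells. Marginal cells held 494, 618 and 562 CPM in captures 1, 2 and 3, spindle/root cells 193 and 53.7 CPM in captures 2 and 3, basal cells 94.1, 39.1 and 50.7 CPM and intermediate cells 22.0, 24.4 and 15.5 CPM. The lowest marginal value was above the highest of any other type, and the difference was 3.29 ± 0.17 (log2 fold change ± SE, adjusted p = 2.95e-13). It was lower in intermediate cells, at -2.66 ± 0.26 (adjusted p = 1.50e-08), and in basal cells, at -0.98 ± 0.27 (adjusted p = 0.00785), the basal call being lost without capture 2 (-0.11, adjusted p = 0.88). In nuclei, marginal nuclei had 999 CPM (95% interval 969.7 to 1029), basal 266 CPM (95% interval 237 to 297), fibrocyte 264 CPM (95% interval 214 to 323), spindle/root 169.6 CPM (95% interval 130.0 to 217) and intermediate 86.2 CPM (95% interval 75.1 to 98.6). Marginal markers summed to 1639.5 CPM in basal and 6064 CPM in marginal nuclei, and their part in the basal Itgb5 value was not tested. At least 1 Itgb5 UMI was found in 74.4% (72.6 to 76.0%) of marginal nuclei, at a median depth of 1395 UMIs. Erythroid nuclei, which should lack the gene, had one in 16.1% (12.9 to 19.6%) at a median depth of 5261 UMIs.

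Itgb8 (chr12:119158022-119238802, minus strand), a partner of Itgav that activates latent TGF-beta, was called higher in both marginal and basal cells. Marginal cells had 35.9, 40.9 and 21.1 CPM, basal cells 21.5, 30.5 and 33.1 CPM, spindle/root cells 23.2 and 10.7 CPM and intermediate cells 0, 0.764 and 0.813 CPM. It was higher in marginal cells by 2.06 ± 0.41 (adjusted p = 1.64e-05) and in basal cells by 2.01 ± 0.42 (adjusted p = 3.68e-05), and lower in intermediate cells at -4.72 ± 0.73 (adjusted p = 1.96e-08). The spindle/root value of capture 2 lay within the range of both marginal and basal cells. Basal nuclei had 58.2 CPM (95% interval 45.1 to 73.8), above marginal nuclei with 36.4 CPM (95% interval 31.0 to 42.5), and intermediate nuclei 2.01 CPM (95% interval 0.651 to 4.68). Spindle/root nuclei had 35.6 CPM, close to the marginal value. Itgb4 (chr11:115974709-116008412, plus strand), which pairs with Itga6 at hemidesmosomes, had its call in intermediate cells, where it was lower at -3.45 ± 0.63 (adjusted p = 1.48e-06), and at -4.55 without capture 3. It stood there at 1.83, 0 and 2.03 CPM, against 19.9, 6.60 and 12.7 CPM in marginal, 21.5, 14.7 and 8.81 CPM in basal and 30.9 and 21.5 CPM in spindle/root cells. In spindle/root cells its difference of 2.13 ± 0.90 (adjusted p = 0.0735) was not called. Nuclei had Itgb4 at 32.8 CPM (95% interval 17.0 to 57.3) in spindle/root, 17.4 CPM (95% interval 10.6 to 26.8) in basal, 15.9 CPM (95% interval 12.4 to 20.1) in marginal and 2.01 CPM (95% interval 0.651 to 4.68) in intermediate nuclei. Itgb6, an epithelial partner of Itgav, had 17 of its 19 UMIs of the 4 cell types in marginal cells, and 21.6 CPM (95% interval 17.5 to 26.4) in marginal against 6.08 CPM (95% interval 2.44 to 12.5) in basal and 0.802 CPM (95% interval 0.0971 to 2.90) in intermediate nuclei.

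**Figure D3:**
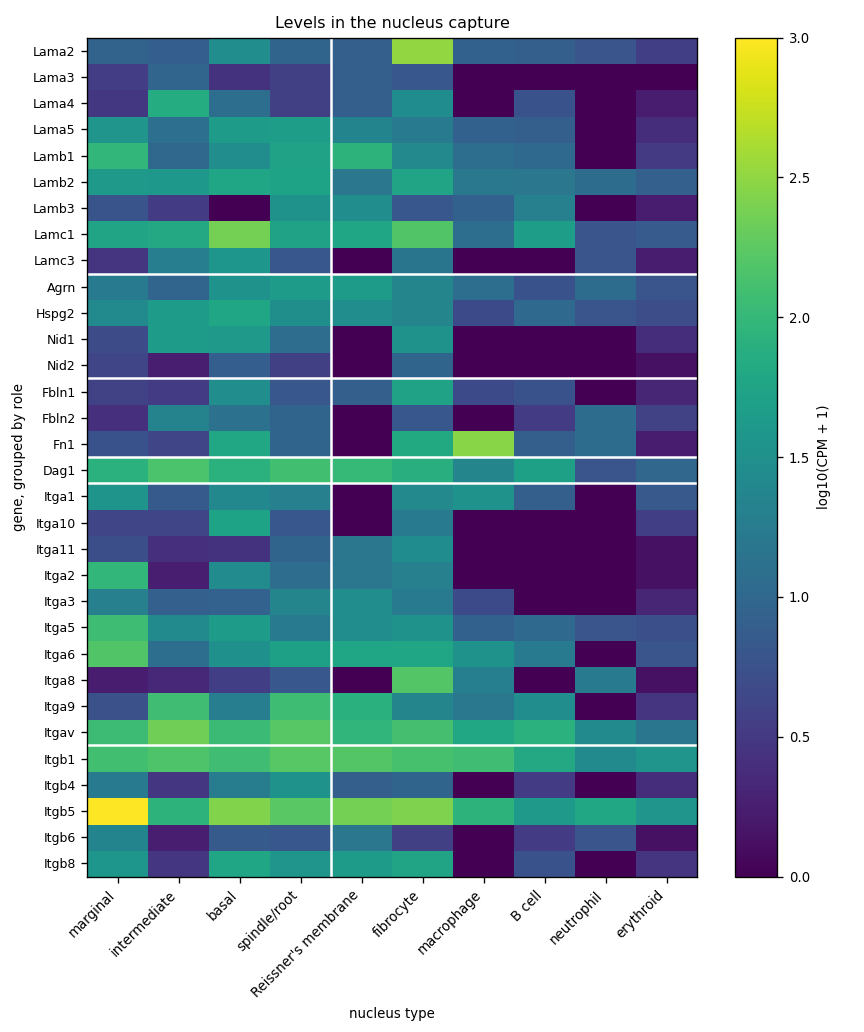
Rows are 32 members outside the leukocyte and platelet integrins, grouped by role, columns are 10 named nucleus types, and the colour is log10(CPM + 1) in the single nucleus capture, with the 4 SV types to the left of the white line. Marginal nuclei lead for Itgb5 (999 CPM), Itga6, Itga5, Itga2 and Lamb1, fibrocyte nuclei for Lama2 and Itga8, and macrophage nuclei for Fn1.

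The nucleus capture, whose animals and processing were separate, was set beside the cells. The SV type with the highest CPM was the same in cells and nuclei for 28 of the 36 members with UMIs in the SV types of both sets (77.8%), and for 6462 of 12970 genes with at least 30 UMIs (49.8%). Without the leukocyte and platelet integrins it was the same for 24 of 30 members (80%). The type differed for Dag1, Itga3, Itgb1, Itgb8, Lama5 and Nid2 outside that group. Of the 42 calls made in cells, 39 had the same sign in nuclei and 3 the opposite. The opposite ones included Itgav in basal cells (log2 ratio in nuclei -0.60) and in spindle/root cells (0.17). Some of the 39 had small ratios in nuclei, such as Itgb8 in marginal (0.19), Hspg2 in intermediate (0.18) and Fbln2 in basal nuclei (0.25). The share with the same sign over all called genes was not computed. These differences between cells and nuclei were not tested, because the nuclei are 1 library.

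**Figure D4:**
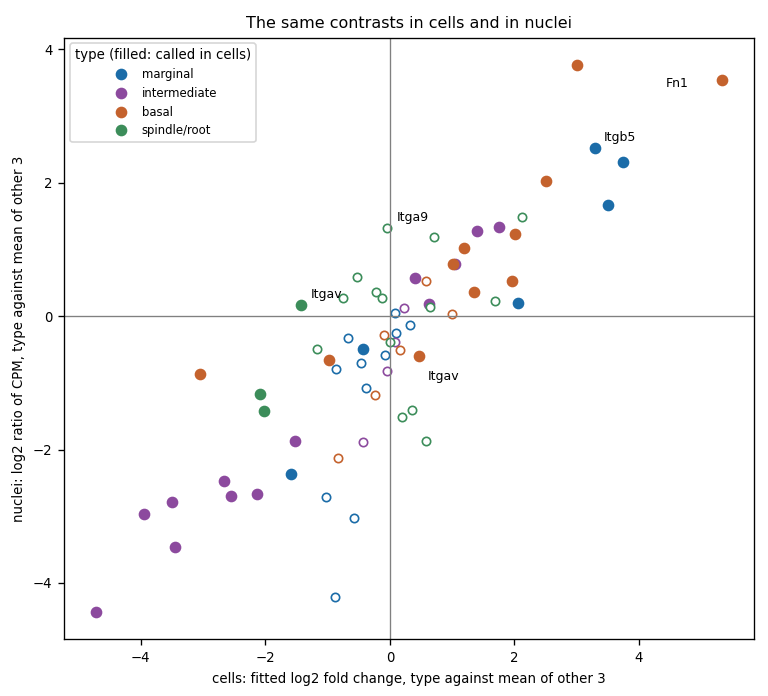
Each of the 68 points is 1 member in 1 type: the x axis is the fitted log2 fold change in cells and the y axis the log2 ratio of CPM in nuclei, both for a type against the mean of the other 3; filled points were called in cells. Of the 33 filled points, 2 lie in a quadrant of opposite signs, Itgav in basal and spindle/root cells.

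The share of all UMIs that a member took also differed between cells and nuclei. Relative to all UMIs of each set, Itga2 was 55.1 times as high in nuclei as in cells, Itga1 49.0 times and Lama2 13.5 times. These ratios rest on 9, 5 and 18 UMIs in all cell captures and are imprecise, and no interval was computed for them. Lamb1 was 5.62 times and Itgb5 3.86 times as high in nuclei as in cells. Nid1, Fbln2 and Fn1 stood at 0.390, 0.392 and 0.505 times their level in cells. The cell and nucleus files list 27998 and 48816 genes, the cell suspensions carried a median of 38.6 to 45.4% mitochondrial UMIs per barcode against 8.27% in nuclei, and the mix of types differed. These cannot be told apart here, so levels are compared only within a set.

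Among nuclei outside the 4 SV types, fibrocytes of the lateral wall held Lama2 at 327 CPM, Lamc1 at 151 CPM (95% interval 114 to 197), Itga8 at 157 CPM (95% interval 119 to 203) and Fbln1 at 52.3 CPM. Itga8, which binds nephronectin, had 0 UMIs in the 4 SV types of cells. In nuclei of these types it had 11 UMIs, 3 each in marginal, intermediate and basal nuclei. Its CPM among the SV types was highest in spindle/root nuclei. In cells, 63 of its 64 UMIs came from 1 group of 38 cells that was left unnamed, because markers of both fibrocytes and endothelium were raised in it. That group, led by Ccl11, Meg3 and Dcn, also held Lama2 with 16 UMIs (71.5 CPM, 40.9 to 116), Nid1 with 30 UMIs (134 CPM, 90.5 to 191), Lamc1 with 28 UMIs (125 CPM, 83.2 to 181) and Lamc3 with 9 UMIs (40.2 CPM, 18.4 to 76.4). Of the 18 Lama2 UMIs in the named and unnamed cells, 16 lay in this group. Itga8 was itself among its 10 leading genes.

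The 211 spindle/root nuclei came from 2 clusters, whose values are given with 95% Poisson intervals. The 116 nuclei of the first were led by Ceacam16, Epyc and Lgr5, and the 95 nuclei of the second had P2rx2 and Slc26a4 among their leading genes. Itgb8 was 9.34 (1.13 to 33.7) CPM in the first and 72.6 (36.2 to 129.9) CPM in the second, Lamb3 9.34 (1.13 to 33.7) and 66.0 (31.7 to 121) CPM, and Itgb4 14.0 (2.89 to 40.9) and 59.4 (27.2 to 113) CPM. The first cluster was the higher for Itga9, 154 (106 to 216) against 66.0 (31.7 to 121) CPM, and for Itga6, 70.1 (39.2 to 116) against 19.8 (4.08 to 57.9) CPM. The median mitochondrial share was 1.85% and 8.78%. The intervals of the 2 clusters did not overlap for Itgb8 and overlapped for the other members named here. These are counts of 2 to 33 UMIs in 1 library, with no test.

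The leukocyte and platelet integrins divided by where they were found. Itgb2, Itgb2l, Itgal and Itgb7 had few or no UMIs in the SV types, while Itga4, Itgb3, Itga2b and Itgae were also counted there. Itgb2, the common beta subunit of leukocyte integrins, had no UMI in the 4 SV types of cells, 12 in macrophages, 6 in neutrophils and 3 in B cells. In nuclei it reached 229 CPM (95% interval 166 to 307) in neutrophils and 41.1 CPM (95% interval 20.5 to 73.6) in macrophages. Itgb2l was found in neutrophils in both sets, with 151 CPM (95% interval 101 to 217) in nuclei and 2 UMIs in cells. Itgal and Itgb7 were highest in macrophage nuclei, at 59.8 CPM (95% interval 34.2 to 97.1) and 67.3 CPM (95% interval 39.9 to 106). Itga4, a receptor for fibronectin and VCAM-1 on leukocytes, was highest in B cell and macrophage nuclei, at 162 CPM (95% interval 126 to 205) and 119.6 CPM (95% interval 81.8 to 169), and stood at 46.9 CPM (95% interval 38.8 to 56.2) in intermediate against 9.55 CPM (95% interval 6.89 to 12.9) in marginal nuclei. Intermediate cells also held more Itga4 than marginal cells, 14.7, 15.3 and 17.9 CPM against 3.98, 3.96 and 2.11 CPM in captures 1, 2 and 3. Itgb3, a partner of Itgav and of the platelet subunit Itga2b, was at 26.1 CPM (95% interval 20.1 to 33.2) in intermediate, 20.5 CPM (95% interval 16.5 to 25.2) in marginal and 6.08 CPM (95% interval 2.44 to 12.5) in basal nuclei. Its levels in cells were 19.2, 19.1 and 14.2 CPM in intermediate, 15.9, 11.9 and 12.7 CPM in marginal and 18.8, 4.89 and 2.20 CPM in basal cells. Itgae, the alpha subunit of an E-cadherin-binding integrin of lymphocytes, was highest of all named nucleus types in marginal nuclei, at 7.51 CPM (95% interval 5.17 to 10.5), and its interval overlapped those of the other 3 SV types. Itga2b had 4 UMIs in spindle/root nuclei, and its intervals overlapped between all 4 SV types.

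**Figure D5:**
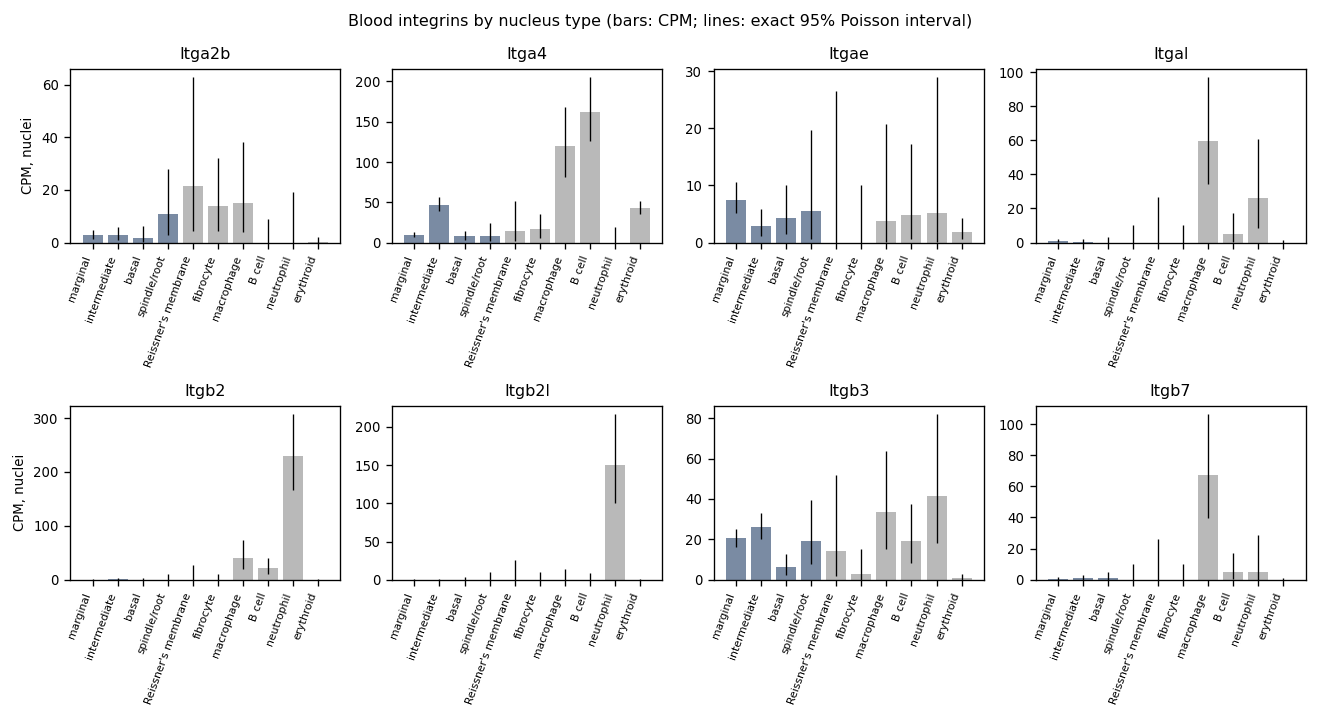
Bars are the CPM of the 8 leukocyte and platelet integrins with at least 30 UMIs in 10 named nucleus types of the single nucleus capture, and lines are exact 95% Poisson intervals; the 4 SV types are the darker bars. Itgb2 and Itgb2l rise in neutrophils (229 and 151 CPM), Itgal and Itgb7 in macrophages, and Itga4, Itgb3, Itga2b and Itgae are also above 0 in SV types, Itgae with its highest bar in marginal nuclei (7.51 CPM).

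Other genes of the basement membrane and of its attachment were counted from a list of 62 genes that held no member. Of these, 35 were tested. In basal cells 13 were higher and 4 lower, where 16.2% and 8.95% of all genes tested were called, and in intermediate cells 9 and 15 (17.5% and 17.8% of all genes). In marginal cells 6 were higher and 1 lower (15.1% and 11% of all genes), and in spindle/root cells 5 and 4 (11.7% and 8.08%). Sparc, a collagen-binding matrix protein, was higher in basal cells, at 1121, 1112 and 791 CPM in captures 1, 2 and 3, a log2 difference of 2.30 ± 0.10 (adjusted p = 2.22e-33), and in spindle/root cells, at 973 and 1053 CPM, a log2 difference of 2.00 ± 0.15 (adjusted p = 1.56e-19). Npnt (nephronectin), a ligand of Itga8, was higher in intermediate cells, at 233, 170.3 and 205 CPM, a log2 difference of 2.13 ± 0.18 (adjusted p = 3.67e-18). It was also called higher in basal cells, by 0.91 ± 0.24 (adjusted p = 0.00196). The 5 tested genes of type IV collagen and other components gave 2 higher and 3 lower calls in intermediate cells, beside 17.5% and 17.8% of all genes.

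For the dystroglycan complex and the enzymes that glycosylate dystroglycan, 10 of 16 genes were tested, and in intermediate cells 3 were called higher, beside 17.5% of all genes (Dmd, Sgcb and Sgce, of which Dmd and Sgce are named for completeness of the count after their values were seen). Sgcb, a sarcoglycan, stood there at 31.1, 40.5 and 41.5 CPM, a log2 difference of 1.64 ± 0.26 (adjusted p = 8.63e-08). Among other receptors and tetraspanins, Bcam, a receptor for Lama5-containing laminins, was higher in spindle/root cells, at 108 and 269 CPM, a log2 difference of 3.65 ± 0.39 (adjusted p = 6.08e-13), and Cd9 was lower in intermediate cells, at 46.7, 48.1 and 43.5 CPM, a log2 difference of -3.04 ± 0.13 (adjusted p = 1.30e-33). Of 13 tested proteins of integrin adhesion sites, 6 were called higher in basal cells, beside 16.2% of all genes. Tns1 stood there at 1164, 1323 and 1018 CPM, a log2 difference of 1.47 ± 0.11 (adjusted p = 7.23e-20). It was also called higher in marginal cells, by 0.83 ± 0.12 (adjusted p = 6.70e-09). Tns3 stood at 108, 127 and 117 CPM in basal cells, a log2 difference of 1.63 ± 0.18 (adjusted p = 3.31e-12). In intermediate cells 2 were higher and 7 lower, beside 17.5% and 17.8%. The hemidesmosome genes Plec and Dst were both higher in basal cells, by 1.67 ± 0.20 (adjusted p = 2.48e-11) and 1.29 ± 0.28 (adjusted p = 1.33e-04). In intermediate cells Dst was higher, 1.41 ± 0.24 (adjusted p = 5.43e-07), and Plec lower, -0.99 ± 0.25 (adjusted p = 6.25e-04). Plec stood at 58.7 CPM in marginal, 56.4 CPM in basal, 19.1 CPM in spindle/root and 15.2 CPM in intermediate nuclei. Dst stood at 163 CPM in intermediate, 96.3 CPM in basal, 68.4 CPM in spindle/root and 12.7 CPM in marginal nuclei.

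Some counts are uncertain for reasons of annotation. In GENCODE vM21, 16 of the 47 members overlap a listed gene on the opposite strand and 16 a listed gene on the same strand, and the strand setting of the counting is not given in the sources used here. Of the members called, those with an opposite-strand neighbour were Fn1, Itga6, Itga9, Itgav, Itgb4 and Lamc1.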

How the data were processed

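Gene expression was measured by droplet single-cell and single-nucleus RNA-seq. The files hold UMI counts of each gene in each barcode as the authors deposited them, unnormalized and made with Cell Ranger 2.0.0 against mm10 according to the submitters' processing notes. Whether intron reads were counted, and on which strand, is not given in the sources used here. The captures held 392, 1358 and 1580 cell barcodes (2811309, 8113494 and 8340882 UMIs) and 11057 nucleus barcodes (22332501 UMIs). Libraries shared 0 to 32 barcodes.

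Barcodes with under 200 genes and predicted doublets (Scrublet in scanpy 1.11.5, expected at 0.8% per 1000 barcodes, which removed 1, 14, 18 and 916) were left out. Seurat 5.3.0 clustered cells and nuclei separately (2000 variable genes without members or pathway genes, 39 and 42 principal components passing JackStraw at p under 1e-04, resolution 0.8). A cluster was named where at least 3 markers of a type were raised and no second type scored above 0.67 of the first, and mixed clusters were split once more on 10 components. That naming rule was revised after the clusters were seen.

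UMIs were summed per capture and type (at least 5 cells). The test was edgeR 4.0.16 (robust quasi-likelihood, TMM, filterByExpr) in R 4.3.3, with Benjamini-Hochberg adjustment over 7430 genes. SEs are for the unshrunk log2 fold change. The capture was a block because the sums of a capture come from 1 suspension: same-capture deviations correlated at -0.0364 to 0.328 over 15 pairs (2654 genes). Alternatives covered doublets, gene minimum, resolution, components, mixed barcodes, cell minimum, DESeq2 1.42.0, filter, scaling, block and each capture left out. The alternative of at least 4 cells per sum was chosen after the data were seen. On counts simulated for the marginal contrast (6905 genes), edgeR found 74 of 99 genes changed 2-fold and 99 of 100 changed 4-fold. It also made 10 false calls. The simulation gave all types a common mean without a capture effect and changed marginal sums only. Recovery in the other contrasts was not simulated.

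Poisson and binomial intervals are exact, and a count of 0 allows up to 3 counts. Members with at least 30 UMIs were described, with values per capture for those called with 1 sign in all captures, and at most 2 genes per pathway list were named. The members, lists and markers were chosen with earlier results of these data known. Some items are not reported here, though counts over all members include them.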

Additional observations from a re-analysis of the deposited data

Results flagged for a closer look

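Itgav, the alpha subunit that pairs with several beta subunits, was higher in basal cells (log2 fold change 0.46) but lower in basal nuclei than in the mean of the other SV types (log2 ratio -0.60). In spindle/root cells it was lower (log2 fold change -1.43), and in nuclei the ratio was 0.17. All 3 captures were higher in basal cells, and captures 2 and 3, the only ones used for spindle/root cells, were lower there. The nucleus capture had the opposite sign in each case. Spindle/root nuclei held 167 CPM against a mean of 148 CPM in the other SV types. That mean lay within the Poisson interval of the spindle/root value given above, so the sign of this ratio is within counting error. The difference between cells and nuclei was not tested.

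Itga8 had 64 UMIs in cells outside any named type and none in the 4 SV types. A count of 0 allows up to 3.67 CPM in the basal cells of capture 2. In spindle/root cells it allows up to 23.2 CPM in capture 2 and 32.2 CPM in capture 3. Of the 64 UMIs, 63 came from the unnamed group of 38 cells led by Ccl11, and fibrocyte nuclei held 157 CPM (95% interval 119 to 203).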

How the results depend on the processing

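Over 17 alternatives, no called difference changed direction, and 24 of the 42 calls were kept under every alternative that gave a value. The counts that moved by more than 1.5 times follow, and the cause was not tested except where fewer genes entered the test. With mixed barcodes left out (3368 genes and 12 members tested), higher calls numbered 3 in marginal, 6 in basal and 0 in spindle/root cells, and lower calls 3 in intermediate, 1 in basal and 2 in spindle/root cells. With no filter on low counts, 8 members were higher and 1 lower in marginal cells and 10 higher in intermediate cells. DESeq2 gave 0 lower in marginal, 2 higher and 1 lower in spindle/root cells. Library size alone gave 1 lower in marginal, 2 higher and 2 lower in spindle/root cells. Resolution 1.2 gave 7 lower in marginal and 4 higher in spindle/root cells, and no doublet removal 0 and 2. The lower calls in marginal cells numbered 1 with at least 500 genes per barcode, 0 with 20 principal components, 0 with members allowed in the clustering and 0 with at least 4 cells per sum, the calls at stake being Fn1 and Dag1. Without the replicate block there was 1 lower member in marginal cells, Dag1, Fn1 being lost (adjusted p = 0.0601), and Itga5 was lost in spindle/root cells (adjusted p = 0.0527), while the other 40 of the 42 calls were kept.

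Leaving out each capture in turn gave 0 to 1 lower in marginal cells, 4 to 9 lower in intermediate cells (4 without capture 2), 0 to 2 lower in basal cells (0 without capture 2), 0 to 1 higher in spindle/root cells (0 without capture 3) and 1 to 5 lower there (2 without capture 2, 1 without capture 3). The share of all genes tested that were called was also lower than in the main fit, in every type and direction. Depth limits the spindle/root cells most, where 3 counts equal 23.2 and 32.2 CPM.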
